A study of Mus musculus with 16 samples.

Results

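The genes described here are 10 immediate-early and heat shock stress genes, Fos, Fosb, Jun, Junb, Egr1, Atf3, Ier2, Dusp1, Hspa1a and Hspa1b, chosen by name. Of these, 9 had values among the 13733 genes measured and Hspa1a was not analysed here. All 9 were among the 13173 genes tested. The genes and the related lists below were chosen with earlier results of these data known. Counts set beside shares of all genes are therefore a description. Bulk RNA-seq had been carried out on knee joint cells of 16 C57BL/6 mice, 4 in each combination of genotype and day, which are called WT D0, Trem2-/- D0, WT D7 and Trem2-/- D7, to ask how loss of Trem2, a surface receptor of myeloid cells, changes the response to joint injury. D0 joints were uninjured and D7 joints were collected 7 days after a single compression of the tibia had ruptured the anterior cruciate ligament of the right knee in mice of 10 weeks. Trem2-/- mice carry the deletion in every cell of the body, and the study describes male mice. The labels give an age of 16 weeks and homogenized joints in other fields, whereas the study describes cells freed from the joint by collagenase and DNase digestion at 37 °C. Whether leukocytes were enriched before these libraries were made is not given in the sources used here. No further source states how the replicates of a group were obtained, so p-values rest on the spread between these mice within their groups. The main fit pools that spread, gene by gene, over all 4 groups of 4 mice.

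Immediate-early genes are transcribed within minutes of a stimulus, from factors such as SRF and CREB that are already present and are switched on by MAP kinases, without new protein synthesis. Fos, Fosb, Jun and Junb encode subunits of AP-1, Egr1 encodes a zinc finger factor, Atf3 encodes a stress-induced member of the ATF family, Ier2 encodes a nuclear immediate-early protein and Dusp1 encodes a phosphatase that switches MAP kinases off again. Hspa1a and Hspa1b encode the inducible Hsp70 chaperone and are controlled by the heat shock factor Hsf1. Warm enzymatic digestion of tissue can induce the same genes after the tissue is taken, and no library without digestion was analysed here, so expression in the joint and induction during cell release cannot be told apart.

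The sequences upstream of the transcription start are shown for 5 members because they carry the motifs of these separate inputs. The 250 bases before the RefSeq start (GRCm38.p6) were read on the gene's strand, 5′ to 3′, for the 8 members that matched the promoter table, and capitals mark TGACG, the core of the cAMP response element bound by CREB and ATF factors, or GAANNTTC, a facing pair of heat shock factor repeats, on either strand. Fos lies at chr12:85473640-85473889 on the plus strand, Dusp1 at chr17:26508473-26508722, Atf3 at chr1:191183334-191183583, Jun at chr4:95052223-95052472 and Hspa1b at chr17:34959239-34959488, the last 4 on the minus strand.
Fos: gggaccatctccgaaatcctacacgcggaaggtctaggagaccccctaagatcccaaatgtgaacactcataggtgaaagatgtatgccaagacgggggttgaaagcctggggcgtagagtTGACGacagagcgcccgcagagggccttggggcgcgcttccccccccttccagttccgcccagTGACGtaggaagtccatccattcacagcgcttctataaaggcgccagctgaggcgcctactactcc
Dusp1: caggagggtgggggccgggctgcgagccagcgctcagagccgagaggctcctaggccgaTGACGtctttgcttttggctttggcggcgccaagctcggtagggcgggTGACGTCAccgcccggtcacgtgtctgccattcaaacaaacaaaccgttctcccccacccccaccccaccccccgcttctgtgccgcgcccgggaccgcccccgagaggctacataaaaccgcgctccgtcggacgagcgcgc
Atf3: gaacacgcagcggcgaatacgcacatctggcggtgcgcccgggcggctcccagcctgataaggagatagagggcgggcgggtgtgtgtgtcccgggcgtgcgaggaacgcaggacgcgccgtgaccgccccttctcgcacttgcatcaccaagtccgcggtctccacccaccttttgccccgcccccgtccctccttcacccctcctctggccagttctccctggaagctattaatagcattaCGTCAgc
Jun: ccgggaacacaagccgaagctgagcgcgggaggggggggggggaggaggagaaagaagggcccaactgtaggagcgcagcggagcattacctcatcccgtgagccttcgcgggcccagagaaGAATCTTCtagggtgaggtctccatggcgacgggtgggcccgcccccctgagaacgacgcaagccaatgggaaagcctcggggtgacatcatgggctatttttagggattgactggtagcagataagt
Hspa1b: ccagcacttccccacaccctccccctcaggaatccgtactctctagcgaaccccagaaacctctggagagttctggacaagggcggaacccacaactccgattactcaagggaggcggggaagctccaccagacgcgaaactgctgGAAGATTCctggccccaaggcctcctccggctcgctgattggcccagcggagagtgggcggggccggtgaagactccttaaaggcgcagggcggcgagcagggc

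TGACG occurred upstream of 5 of the 8 members, Fos, Fosb, Junb, Atf3 and Dusp1, against 17.8% of 32851 promoters of the same length. The full palindrome TGACGTCA, which contains TGACG on both strands, was present in Dusp1 alone among the 8 and in 1.55% of all promoters. GAANNTTC occurred in Hspa1a, Hspa1b and Jun, against 6.69% of promoters, and the opposite arrangement TTCNNGAA occurred in 0 of 8 members against 7.17%. Fos was the only member of the 8 with TATAA, which 22.8% of promoters held, and CCAAT occurred in 4 members, Hspa1a, Hspa1b, Jun and Junb, against 33.8%. The Hspa1b and Hspa1a stretches were identical at 247 of 250 bases. Such matches describe letters in a window and not bound sites. In the GENCODE annotation (GRCm38) Jun (chr4:95049034-95052222), Ier2 (chr8:84661331-84662852) and Hspa1b (chr17:34956436-34959238) consist of 1 exon each. Opposite-strand genes cover 7.28% of the exon bases of Jun (Junos) and 7.52% of those of Junb (Prdx2), and reads there cannot be told apart if the counting ignored strand.

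Libraries held between 11567073 and 32867818 reads assigned to genes, and the lowest count of any member in any library was 2849, so counting error was small beside the differences between mice. The deposited values are in CPM, reads brought to a common library size by the TMM method. Groups were compared with limma on log2(CPM + 1), and a gene was called with the study's cutoffs, which are 0.05 for the unadjusted p and 0.32 for the size of the log2 change. Members together took between 0.703% and 2.68% of a library's reads, the lowest share being in WT D7 replicate 4 and the highest in Trem2-/- D0 replicate 3. Trem2 itself averaged 4.56 CPM in WT D0 against 1.80 CPM in Trem2-/- D0, with overlapping mice, and 16.8 CPM in WT D7 against 4.27 CPM in Trem2-/- D7, with no overlap. Markers of leukocytes, fibroblasts, chondrocytes, endothelium and muscle were all detected in every group.

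On the scale of CPM per kilobase of exon, which allows levels to be compared between genes, the means over 16 libraries ran from Hspa1b (958) through Fos (729), Junb (555), Jun (479), Egr1 (358), Atf3 (355), Fosb (278) and Ier2 (217) to Dusp1 (159). Each gene in that order overlapped its neighbours over the range of its mice. Depending on gene and library, members ranked between 5 and 308 among 13412 genes with a known exon length, so the stress genes belonged to the most abundant transcripts of every library, uninjured ones included.

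**Figure D1:**
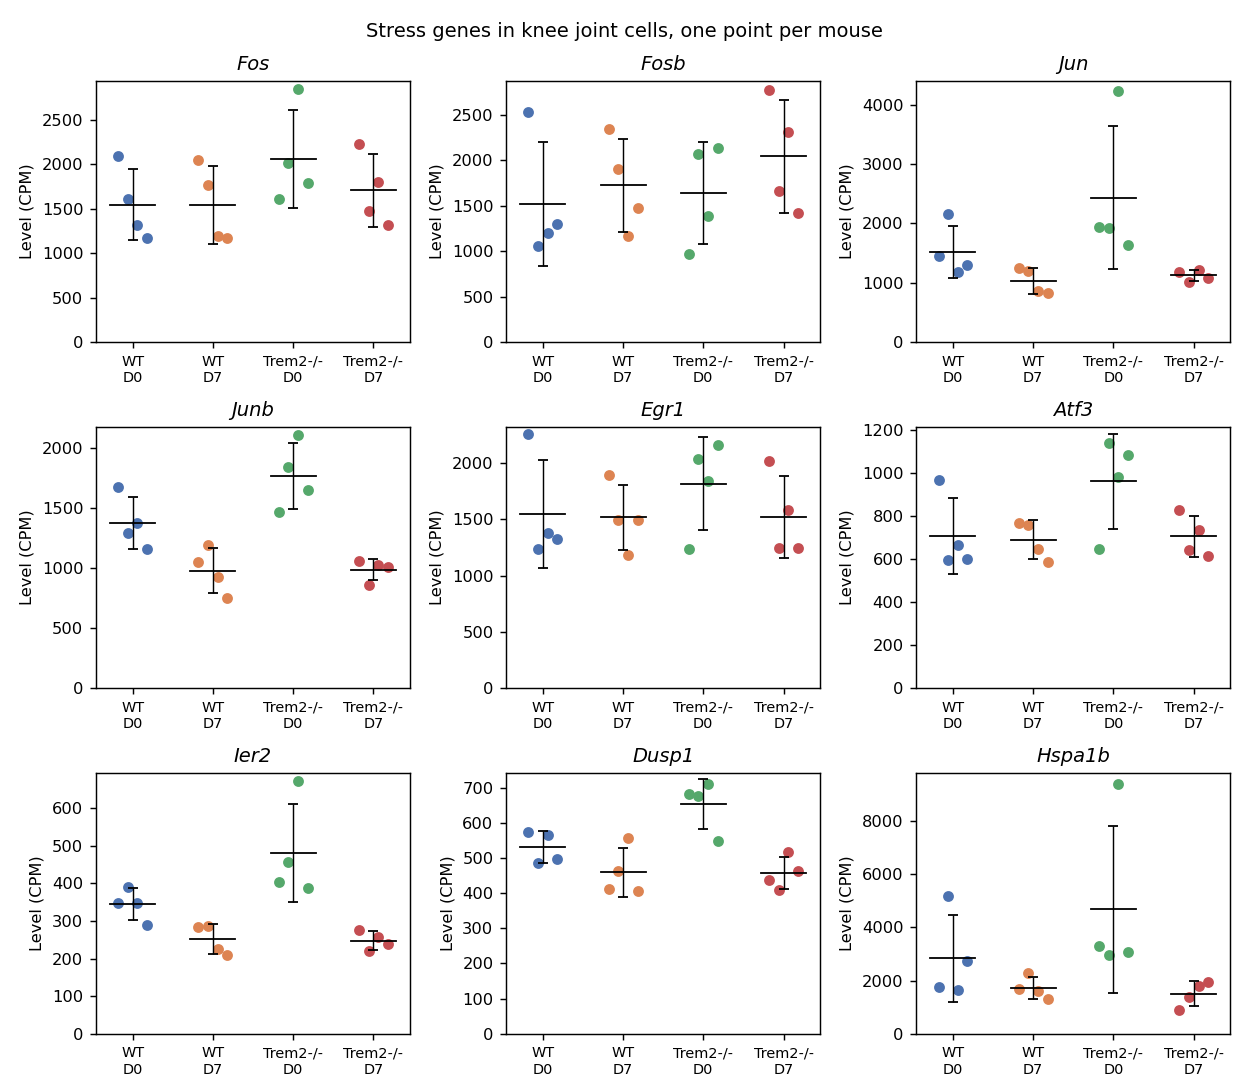
Level of each of the 9 measured genes (CPM) in the 4 groups, with 1 point per mouse, the mean as a long line and the SD as a bar. Trem2-/- D0 mice had the highest mean for every gene but Fosb, and Trem2-/- D0 replicate 3 stood far above the others for Hspa1b (9389.7 CPM) and Jun (4227 CPM).

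Of the AP-1 subunits, Jun and Junb were called lower with injury in Trem2-/- mice and Junb also in WT mice. Fos and Fosb passed in neither genotype. Jun stood at 1446, 2164, 1186 and 1292 CPM in the 4 WT D0 mice and at 1248, 1201, 863 and 829.5 CPM in WT D7. In Trem2-/- D0 mice Jun stood at 1944, 1917, 4227 and 1633 CPM and at D7 at 1187, 1007, 1211 and 1086 CPM. Every Trem2-/- D0 mouse was thus above every Trem2-/- D7 mouse, whereas the WT groups overlapped. The change in Trem2-/- mice was -1.01 ± 0.27 on the log2 scale (SE, n = 4 per group; limma adjusted p = 0.00639; exact permutation p = 0.0286, the smallest that 70 assignments allow), and that in WT mice was -0.54 ± 0.27 and did not pass (limma adjusted p = 0.144).

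Junb, the AP-1 subunit that can restrain Jun, stood at 1674, 1291, 1374 and 1163 CPM in WT D0 mice and at 1047, 1193, 929 and 747 CPM in WT D7 mice. In Trem2-/- mice Junb stood at 1469, 1841, 2109 and 1649 CPM at D0 and at 1056, 859, 1023 and 1007 CPM at D7. A single WT D7 mouse reached into the WT D0 range, and the Trem2-/- groups did not overlap. Junb fell by 0.50 on the log2 scale in WT mice (SE 0.18, limma adjusted p = 0.0464, exact permutation p = 0.0571). In Trem2-/- mice it fell by 0.83 (SE 0.18, limma adjusted p = 0.00120). The WT call of Junb was lost without WT D7 replicate 4 and when the fit held the compared groups alone.

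Fos, the partner with which Jun forms the classical AP-1 dimer, stood at 2088, 1611, 1315 and 1177 CPM in WT D0 mice and at 2049, 1764, 1189 and 1173 CPM in WT D7 mice. Its Trem2-/- mice stood at 1605, 2014, 2849 and 1786 CPM at D0 and at 2234, 1473, 1803 and 1313 CPM at D7. The ranges overlapped in both genotypes, and the log2 differences were -0.01 ± 0.26 in WT and -0.27 ± 0.26 in Trem2-/- mice. Fosb was the only member with a higher mean at D7 in both genotypes, at 1521 ± 680 CPM (SD, n = 4) in WT D0, 1724 ± 511 in WT D7, 1644 ± 563 in Trem2-/- D0 and 2045 ± 619 in Trem2-/- D7. Its log2 differences of 0.22 and 0.34 were within the spread of the mice, did not pass the test, and turned negative under quantile normalization (-0.12 and -0.26).

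Ier2 gave the most even separation. WT D0 mice stood at 349, 391, 349 and 289.9 CPM and WT D7 mice at 284, 286, 226 and 209 CPM. Trem2-/- D0 mice stood at 404, 458, 671 and 389 CPM and Trem2-/- D7 mice at 276, 219, 258 and 238 CPM. Neither genotype had an overlap between days. Ier2 was lower by 0.46 in WT mice (log2 fold change -0.46, SE 0.17; limma adjusted p = 0.0508) and by 0.92 in Trem2-/- mice (log2 fold change -0.92, SE 0.17; limma adjusted p = 0.000367).

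Dusp1, the MAP kinase phosphatase, stood at 575, 487, 565 and 497 CPM in WT D0 mice and at 411, 462, 558 and 407 CPM in WT D7 mice, so these groups overlapped. In Trem2-/- mice Dusp1 stood at 681, 678, 710.3 and 548 CPM at D0 and at 437, 410.5, 517 and 462 CPM at D7, with no overlap. It fell by 0.52 on the log2 scale in Trem2-/- mice (SE 0.13; limma adjusted p = 0.00410), and the WT difference of -0.22 ± 0.13 did not pass. The coefficient of variation of Dusp1 over the mice of a group was between 8.60% and 15.3%.

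Egr1 and Atf3 showed no separation by day. Egr1 ranged from 1239 to 2265 CPM in WT D0, 1186 to 1899 in WT D7, 1233 to 2163 in Trem2-/- D0 and 1248 to 2017 in Trem2-/- D7, and its log2 differences between days were -0.01 ± 0.25 and -0.25 ± 0.25. Atf3 stood at 965, 593, 663 and 600.3 CPM in WT D0 mice and at 768, 758, 648 and 585 CPM in WT D7 mice. Its Trem2-/- values were 645, 1137, 979.9 and 1080.0 CPM at D0 and 825, 642, 735 and 612 CPM at D7, so a single D0 mouse lay within the D7 range. The difference of -0.43 ± 0.20 in Trem2-/- mice met the cutoffs for a call but not the adjusted threshold (limma adjusted p = 0.0830), and the call was lost in 12 of 16 fits with 1 library left out.

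Hspa1b had the widest range of all members. WT D0 mice stood at 1772, 5169, 1649 and 2735 CPM and WT D7 mice at 1698, 2268, 1618 and 1288 CPM. Trem2-/- D0 mice stood at 3301, 2970.0, 9389.7 and 3067 CPM, and Trem2-/- D7 mice at 907, 1381, 1798 and 1944 CPM. The high WT D0 mouse was replicate 2 and the high Trem2-/- D0 mouse was replicate 3. Every Trem2-/- D0 value lay above every Trem2-/- D7 value. Hspa1b fell by 1.502 on the log2 scale in Trem2-/- mice (SE 0.42; limma adjusted p = 0.00701), and the smallest drop over the fits with 1 library left out was 1.10. In WT mice the difference was -0.59 ± 0.42 and did not pass (limma adjusted p = 0.288). Hspa1b shared 55.8% of its 75-base stretches with Hspa1a, and how the counting treated reads that match both is not given in the sources used here, so Hspa1b values are uncertain as to the copy.

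By the study's cutoffs 2 of the 9 members fell with injury in WT mice (Junb and Ier2) and 0 rose. The share that fell was near that of all genes tested, of which 18.2% fell and 37.4% were called in either direction. In Trem2-/- mice 6 of 9 fell (Hspa1b, Jun, Ier2, Junb, Dusp1 and Atf3) and 0 rose, where 27.9% of all genes fell and 54.5% were called. With adjustment the counts were 1 and 5 of 9, against 12.6% and 27.2% of all genes lower. Groups did not overlap for 1 member in WT mice (Ier2; all genes lower without overlap, 9.34%) and for 5 in Trem2-/- mice (all genes, 26.3%). The WT counts with adjustment and without overlap were near the shares of all genes too. The median log2 fold change of the members was -0.22 in WT and -0.52 in Trem2-/- mice, beside -0.04 for all genes tested in each genotype. Jun, Junb, Dusp1, Ier2 and Hspa1b were still called in Trem2-/- mice without WT D0 replicate 2 and Trem2-/- D0 replicate 3, the mice with the most Hspa1b. The WT count was 0 without WT D7 replicate 4, the mouse with the lowest value of 7 members in its group.

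**Figure D2:**
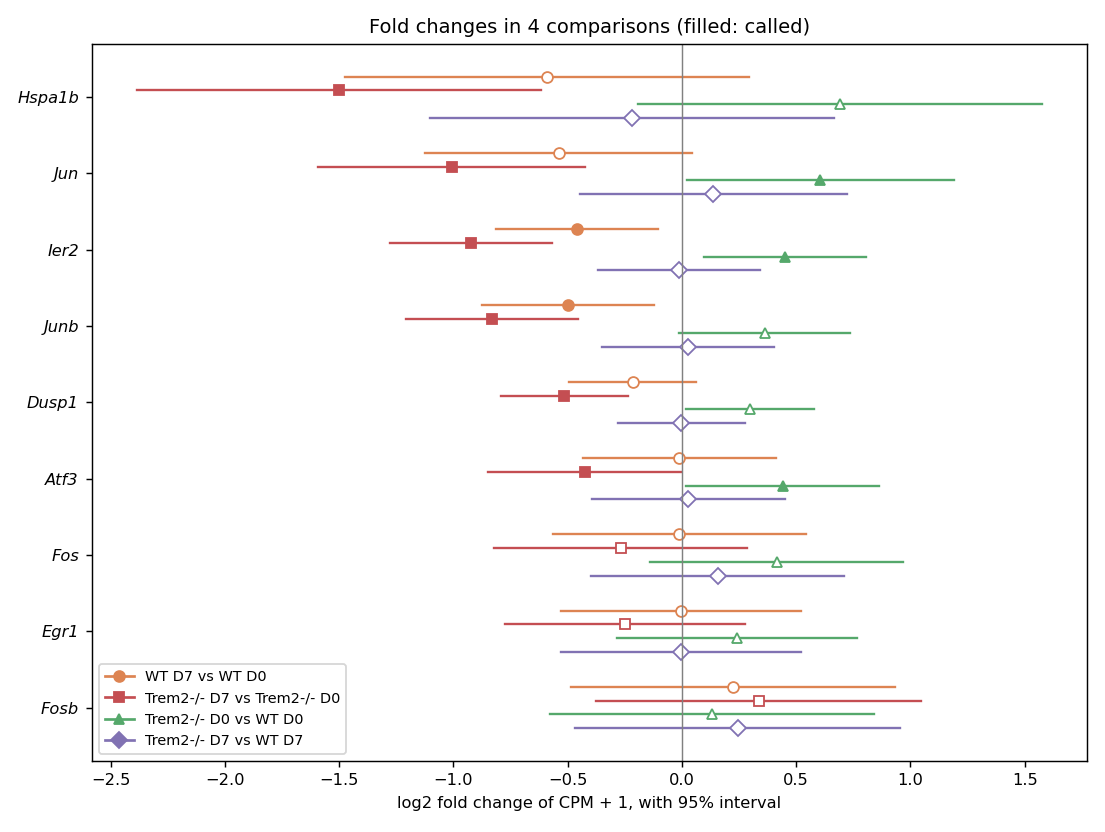
Log2 fold changes (CPM + 1) with 95% intervals for the 9 genes in 4 comparisons, where a filled symbol passed the study's rule. The red squares (injury in Trem2-/- mice) run from -1.502 for Hspa1b to 0.34 for Fosb. They lie furthest to the left for every gene but Fosb, where the red square lies furthest to the right. No purple diamond (genotype at D7) is filled.

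Cell type markers moved with injury in the same libraries. All 5 leukocyte markers fell in both genotypes, their summed level ranging from 2535 to 4957 CPM in WT D0, 1469 to 3195 in WT D7, 3182 to 5455 in Trem2-/- D0 and 1156 to 1445.5 in Trem2-/- D7. Neutrophil markers also fell (5 of 5 in both genotypes), from sums of 11382 to 26416 CPM in WT D0 and 11883 to 35323 in Trem2-/- D0 to sums of 3618 to 11321 in WT D7 and 3518 to 5878 in Trem2-/- D7. Of 5 fibroblast markers 4 rose in both genotypes, and their sum reached 54058 to 80658 CPM in WT D7 and 74627 to 102730.4 CPM in Trem2-/- D7 against 4601 to 36531 and 4088 to 8319 CPM at D0. All 5 chondrocyte markers rose in both genotypes (median log2 3.74 and 4.88), their sum ranging from 664 to 11913 CPM in WT D0, 27198 to 69499 in WT D7, 1000.1 to 3749.6 in Trem2-/- D0 and 25447 to 39245 in Trem2-/- D7. Macrophage markers rose, 4 of 5 in WT mice (median 1.43) and 3 of 5 with 1 lower in Trem2-/- mice (median 0.82), from sums of 196 to 350.1 CPM in WT D0 and 269.9 to 309 in Trem2-/- D0 to sums of 442 to 594 in WT D7 and 332 to 393 in Trem2-/- D7. None of these markers was at 0 in any group. Fewer cells of a type and less RNA per cell cannot be told apart in bulk libraries, and the part of these shifts in the stress gene differences was not tested.

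Before injury, every member had a higher mean in Trem2-/- mice than in WT mice, where 48.8% of all genes tested had a lower estimate. The members varied together over mice, so their directions are not separate results. By the study's rule 3 of 9 were called higher, against 0.782% of all genes tested higher and 2.15% in either direction. These were Jun (log2 0.61, SE 0.27), Ier2 (0.45, SE 0.17) and Atf3 (0.44, SE 0.20). All had an adjusted p of 0.9996 in limma, as had the other members, and 0 genes of the whole table passed with adjustment. None of the 9 separated the genotypes at D0, where 0.979% of all genes did so. Exact permutation p-values were 0.114 for Jun, 0.0571 for Ier2 and 0.114 for Atf3. Dusp1 differed by 0.30 (SE 0.13) with an unadjusted limma p of 0.0377 but less than the fold required, and Hspa1b, Fos, Junb, Egr1 and Fosb by 0.69, 0.41, 0.36, 0.24 and 0.13 without passing. Cell type markers differed in the same comparison, with 2 of 5 fibroblast (median log2 -1.06), 2 of 5 chondrocyte (median -1.47) and 2 of 4 osteoblast markers (median -0.97) called lower in Trem2-/- D0, every marker of these lists having a lower estimate there and none passing adjustment. Their summed levels ranged from 4601 to 36531, from 664 to 11913 and from 106 to 821 CPM in WT D0 and from 4088 to 8319, from 1000.1 to 3749.6 and from 114 to 279 CPM in Trem2-/- D0. Their part in the result was not tested. The count of called members was 0 without Trem2-/- D0 replicate 3, and also 0 without WT D0 replicate 4. In these fits 1.81% and 0.814% of all genes were called in either direction. WT D0 replicate 4 was the lowest of its group for Fos, Junb and Ier2. Its fibroblast marker sum (36531 CPM) exceeded that of every other D0 mouse.

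At D7 the genotypes were close. None of the 9 members was called by limma, by edgeR or by voom on the recovered reads, and 0 had an unadjusted p under 0.05, where 5.72% of all genes were called and 7.27% had such a p. Log2 differences ran from -0.22 for Hspa1b to 0.24 for Fosb, and the 95% intervals over the members reached from -1.10 to 0.95. For Junb, Atf3, Egr1, Ier2 and Dusp1 the estimates were 0.03, 0.03, -0.003, -0.01 and -0.002, with Dusp1 having the narrowest interval (-0.28 to 0.28). Leukocyte markers differed between the same groups, with 5 of 5 lower in Trem2-/- D7 than in WT D7 by the study's rule and 0 of 5 after adjustment.

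The larger drop in Trem2-/- than in WT mice was tested directly as the interaction of genotype and injury. By limma 0 of 9 members passed, with 0 at an unadjusted p under 0.05 and 0 by edgeR, against 7.79% of all genes called and 8.16% with an unadjusted p under 0.05. The estimates were negative for 8 of 9 members, at -0.91 ± 0.59 for Hspa1b, -0.47 ± 0.39 for Jun, -0.46 ± 0.24 for Ier2 (limma adjusted p = 0.634), -0.41 ± 0.28 for Atf3 and -0.33 ± 0.25 for Junb. Negative estimates were found for 49.2% of all genes tested, and the members varied together over mice. With 0 of 9 passing, a difference between genotypes in the injury response of the stress genes was not shown. Cell type markers had interaction estimates too. All 5 leukocyte markers (median log2 -0.97) and 3 of 5 macrophage markers (median -0.62) were called lower, 1 of 5 fibroblast markers was called higher (median 1.55), and none passed adjustment. Their part in the members' estimates was not tested. The comparisons of each day and genotype share their groups, so the higher Trem2-/- D0 levels enter both the genotype difference at D0 and the drop with injury.

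Mice of 1 group differed from each other, and several members differed together. Each mouse was set against the mean of its own group on the log2 scale, and the deviations of the 9 members were correlated over the 16 libraries, which gave 36 pairs. A permutation of mice within groups (100000 resamples) left 13 pairs with a Benjamini-Hochberg adjusted p under 0.05 by Pearson's r and 11 by Spearman's rho, all 13 positive. The share of passing pairs among all genes was not computed, so these pairs show nothing particular to the members. The closest pair was Fosb with Egr1 (r = 0.96, rho = 0.96, adjusted permutation p = 0.00108 and 0.00144; r = 0.94 without the 2 mice farthest from the median). Fosb with Atf3 (r = 0.91, rho = 0.82) and Egr1 with Atf3 (r = 0.91, rho = 0.84) followed, with adjusted permutation p-values of 0.00468 and 0.00612 for r and 0.0108 for each rho.

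Jun went with Ier2 (r = 0.91, rho = 0.84, adjusted permutation p = 0.00612 and 0.0115) and with Hspa1b (r = 0.80, rho = 0.63, adjusted permutation p = 0.0355 and 0.0471), but not with Fosb (r = 0.003) or Egr1 (r = 0.10). The relation of Jun with Hspa1b dropped to r = 0.49 without WT D0 replicate 2 and Trem2-/- D0 replicate 3, so it rests on those mice, whereas Jun with Ier2 stayed at r = 0.84. Hspa1b showed negative values with Fosb (r = -0.37, rho = -0.37) and Egr1 (r = -0.33, rho = -0.41) that did not pass, and Fos passed by r with 6 of the other members but not with Dusp1 (r = 0.08) or Hspa1b (r = 0.21). Dusp1 had no pair that passed.

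**Figure D3:**
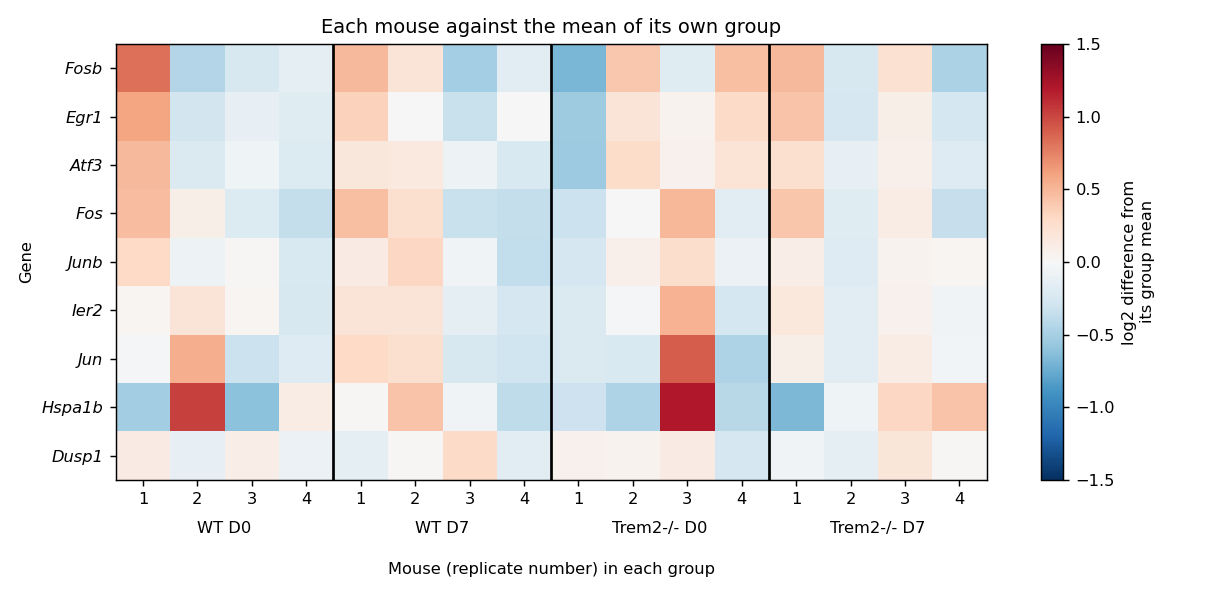
Log2 difference of each mouse from the mean of its own group for the 9 genes, with mice by replicate number along the horizontal axis and colour from blue (lower) to red (higher). WT D0 replicate 1 is high for Fosb, Egr1 and Atf3 and low for Hspa1b, and Trem2-/- D0 replicate 3 is high for Hspa1b, Jun and Ier2.

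The extremes in single mice come from the same values as these correlations and are a description. WT D0 replicate 1 was the highest of its group for 6 of 9 members (Fos, Fosb, Junb, Egr1, Atf3 and Dusp1), with Fosb at 2529.8 CPM against 1054 to 1295 CPM in the other WT D0 mice. WT D0 replicate 2 was highest for Jun, Ier2 and Hspa1b and lowest for Fosb, Egr1, Atf3 and Dusp1. Trem2-/- D0 replicate 3 was highest for Fos, Jun, Junb, Ier2, Dusp1 and Hspa1b, and Trem2-/- D0 replicate 1 was lowest for Fos, Fosb, Junb, Egr1 and Atf3.

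Among the 10552 genes that averaged 5 CPM or more, those whose deviations were most like those of Hspa1b (used in place of Hspa1a) were Hspa1l (r = 1.00), Hsp90ab1 (r = 0.97), Hspd1 (r = 0.96), Hsph1 (r = 0.96) and Hist1h4i (r = 0.92), over 16 libraries. Hsp90ab1 encodes a cytosolic Hsp90, Hspd1 the mitochondrial Hsp60 chaperone and Hsph1 an Hsp110 chaperone. Hspa1l, the neighbouring Hsp70-like gene that is known mainly from testis, stood at 9.93% to 10.8% of the Hspa1b level in all 16 libraries. It shares 71.1% of its 75-base stretches with Gm10501, an antisense neighbour, and whether the counting used strand is not given in the sources used here. For Fos the 5 most alike genes were Trim41 (r = 0.92), Usp21 (r = 0.91), Pex6 (r = 0.91), Ehmt1 (r = 0.91) and Cchcr1 (r = 0.90), all at low levels, with means from 13.8 to 38.7 CPM. The member most like Fos was Ier2 (r = 0.82), below all of these.

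The 24 measured genes of the heat shock chaperone and co-chaperone list were compared with Hspa1b in the uninjured mice. In WT D0, 14 of the 24 were highest in replicate 2, and in Trem2-/- D0, 14 of the 24 were highest in replicate 3, with 13 genes highest in both. Hsp90ab1, Hspd1 and Hsph1, chosen above for their likeness to Hspa1b over the same libraries, are 3 of the 24, so these counts are a description. The Hsp40 co-chaperone Dnaja1, named for its change with injury, stood at 628, 767, 545 and 551 CPM in the WT D0 mice and at 647, 695, 1239 and 668 CPM in the Trem2-/- D0 mice. The small chaperone Hspb8 did not follow, with 26.7 CPM in WT D0 replicate 2 and 38.6 CPM in Trem2-/- D0 replicate 3, the lowest value of each group. Cryab (25.6 and 41.9 CPM) and Hspa12a (11.2 and 16.6 CPM) were also the lowest of each group in these mice. Others of the 24, such as Bag3 and Hspb1, were lowest in WT D0 replicate 2 but not in Trem2-/- D0 replicate 3. The mice, and the genes that did not follow, were singled out after their values were seen.

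**Figure D4:**
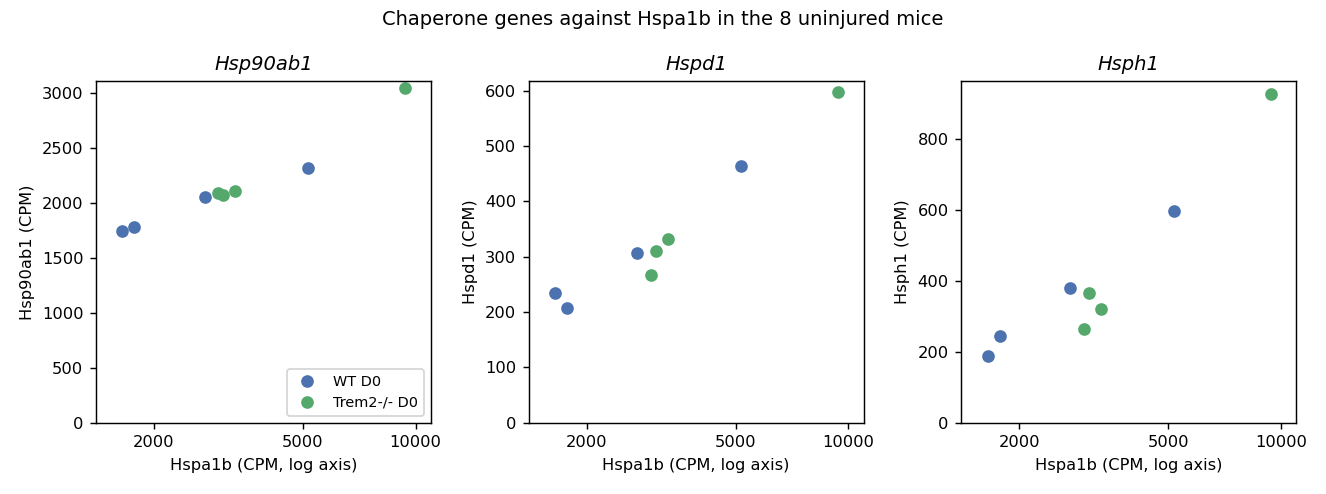
Hsp90ab1, Hspd1 and Hsph1 (CPM, vertical axes from 0) against Hspa1b (CPM, log axis) in the 8 uninjured mice, with 1 point per mouse. The genes were chosen for their likeness to Hspa1b over libraries that include these mice, so the order of the points, with the mice at 5169 and 9389.7 CPM of Hspa1b highest in each panel, describes that choice and is no separate support.

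The counts of this and the following lists stand beside 18.2% of all genes tested lower and 19.3% higher with injury in WT mice, and 27.9% lower and 26.5% higher in Trem2-/- mice. The lists were chosen with earlier results of these data known, so the counts describe them and show no excess. Of the 24 heat shock genes, 11 fell and 2 rose in Trem2-/- mice (median log2 -0.29), with 10 lower after adjustment. In WT mice 4 fell and 2 rose (median -0.09), a share lower no larger than that of all genes, and 0 were lower after adjustment. Dnaja1 went from 812 ± 285 to 428 ± 49.6 CPM (SD, n = 4) in Trem2-/- mice, a log2 change of -0.87 (SE 0.19; limma adjusted p = 0.00122), and Hspd1 from 377 ± 150 to 199 ± 21.7 CPM. The WT differences of Hspd1 (log2 -0.53) and Hspa2 (log2 -0.44) met the cutoffs for a call but not the adjusted threshold (limma adjusted p = 0.109 and 0.0933), and the calls were lost in 10 and 3 of 16 fits with 1 library left out. Against that direction Hspb8 rose in both genotypes (log2 0.87 in WT and 1.12 in Trem2-/- mice), Dnajb4 rose in WT mice (0.34) and the factor Hsf2 rose in Trem2-/- mice (0.65).

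Of 27 other immediate-early genes, 8 fell and 3 rose in WT mice (median log2 -0.15), where 18.2% of all genes fell, and 14 fell and 4 rose in Trem2-/- mice (median -0.38), where 27.9% did. After adjustment the counts were 7 lower and 0 higher in WT mice and 14 lower and 3 higher in Trem2-/- mice. Btg2, an antiproliferative gene, fell by 0.60 on the log2 scale in WT and by 1.11 in Trem2-/- mice (limma adjusted p = 0.0340 and 0.000324). Zfp36, which encodes the mRNA-destabilizing protein tristetraprolin, fell by 0.59 in WT mice, and the pseudokinase gene Trib1 fell by 1.07 in Trem2-/- mice, from 868 ± 164 to 409.98 ± 52.4 CPM. The nuclear receptor gene Nr4a2 rose in Trem2-/- mice (log2 0.72; limma adjusted p = 0.0248). Cyr61, a matricellular target of YAP and SRF, met the cutoffs in both genotypes (log2 0.67 and 0.69) but not the adjusted threshold (limma adjusted p = 0.0913 and 0.0547). Klf4 also met them in WT mice (0.54; limma adjusted p = 0.117), and its call was lost in 11 of 16 fits with 1 library left out. Before injury 5 of the 27 were called higher in Trem2-/- mice and 0 lower, against 0.782% of all genes higher, with 0 after adjustment.

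The 18 measured AP-1 and ATF relatives of the members gave 6 lower and 2 higher in WT mice (median log2 -0.25) and 5 lower and 1 higher in Trem2-/- mice (median -0.25). The share lower in Trem2-/- mice was near that of all genes (27.9%). Batf, an AP-1 factor of lymphocytes, went from 7.66 to 3.60 CPM in WT and from 9.44 to 2.00 CPM in Trem2-/- mice, and Jdp2 fell by 0.91 on the log2 scale in Trem2-/- mice and Crem by 0.57 in WT mice (limma adjusted p = 0.0766). Maf, known in macrophages and chondrocytes, rose in both genotypes (log2 0.77 and 1.45).

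MAP kinase feedback genes, 15 in number, moved both ways, with 3 higher and 2 lower in WT mice (median log2 0.17) and 5 higher and 4 lower in Trem2-/- mice (median 0.31). These shares were near those of all genes (19.3% higher and 18.2% lower in WT, 26.5% and 27.9% in Trem2-/- mice). Dusp2, a phosphatase of nuclear MAP kinases, fell by 1.07 on the log2 scale in WT and by 1.28 in Trem2-/- mice, and Dusp5, another of them, fell by 0.61 and 0.83. Spred1, an inhibitor of Ras signalling, rose by 0.80 and 1.17, and Dusp10 by 0.71 and 0.98. Among 17 kinases and factors upstream, 4 fell and 1 rose in WT mice (median -0.04) and 6 fell and 2 rose in Trem2-/- mice (median 0.04), shares near those of all genes (18.2% and 27.9% lower). Rps6ka1, which encodes the kinase RSK1, fell by 1.32 and 2.09, Mapk14, which encodes p38α, fell by 0.65 and 0.94, Elk3 rose by 0.65 and 0.77, and Elk1 rose by 0.37 in Trem2-/- mice.

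In the integrated stress response, the pathway in which Atf4 and Ddit3 act, 2 of 12 genes fell and 2 rose in WT mice (median log2 -0.09), and 3 fell and 2 rose in Trem2-/- mice (median -0.10). The shares lower were near those of all genes (18.2% and 27.9%). Gadd45a fell by 0.96 and 1.56 and Ddit3 by 0.51 and 1.11 on the log2 scale, while Vldlr (1.40 and 1.37) and the kinase gene Eif2ak3 (0.48 and 0.74) rose. Of 6 glucocorticoid response genes, which are raised by stress hormones, 1 rose and 1 fell in WT mice (median 0.04) and 1 rose and 2 fell in Trem2-/- mice (median -0.04). Their shares lower were near those of all genes too. Sgk1 differed by 0.45 in WT mice (limma adjusted p = 0.0784) and rose by 0.69 in Trem2-/- mice, Zbtb16 fell by 0.84 and 1.73, and Tsc22d3 fell by 0.80 in Trem2-/- mice.

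The members were also set against the summed levels of 12 cell type marker lists at each day, giving 216 relations over 8 mice each, and 0 passed after Benjamini-Hochberg adjustment. The 8 mice of a day held both genotypes and were not set against their group means, so genotype differences enter these values. The lowest p was for Fosb and the endothelial markers Pecam1, Cdh5, Kdr, Tek and Emcn at D0 (r = 0.95, exact permutation p = 0.000794, adjusted p = 0.171; rho = 0.90, exact permutation p = 0.00456, adjusted p = 0.313). The value was r = 0.87 without the 2 mice farthest from the median marker level. Egr1 had r = 0.89 with the same markers at D0 (exact permutation p = 0.00771, adjusted p = 0.544) and Hspa1b had r = -0.52 (exact permutation p = 0.185, adjusted p = 0.694). At D7 the values had the opposite sign, with r = -0.64 for Fosb and r = -0.82 for Egr1 (exact permutation p = 0.0957 and 0.0151, adjusted p = 0.679 and 0.544). None of the 5 endothelial markers was called between days in either genotype, and their sum ranged from 1011 to 2708 CPM in WT D0, 1303 to 2007 in WT D7, 1048 to 2212 in Trem2-/- D0 and 1553 to 2104 in Trem2-/- D7.

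**Figure D5:**
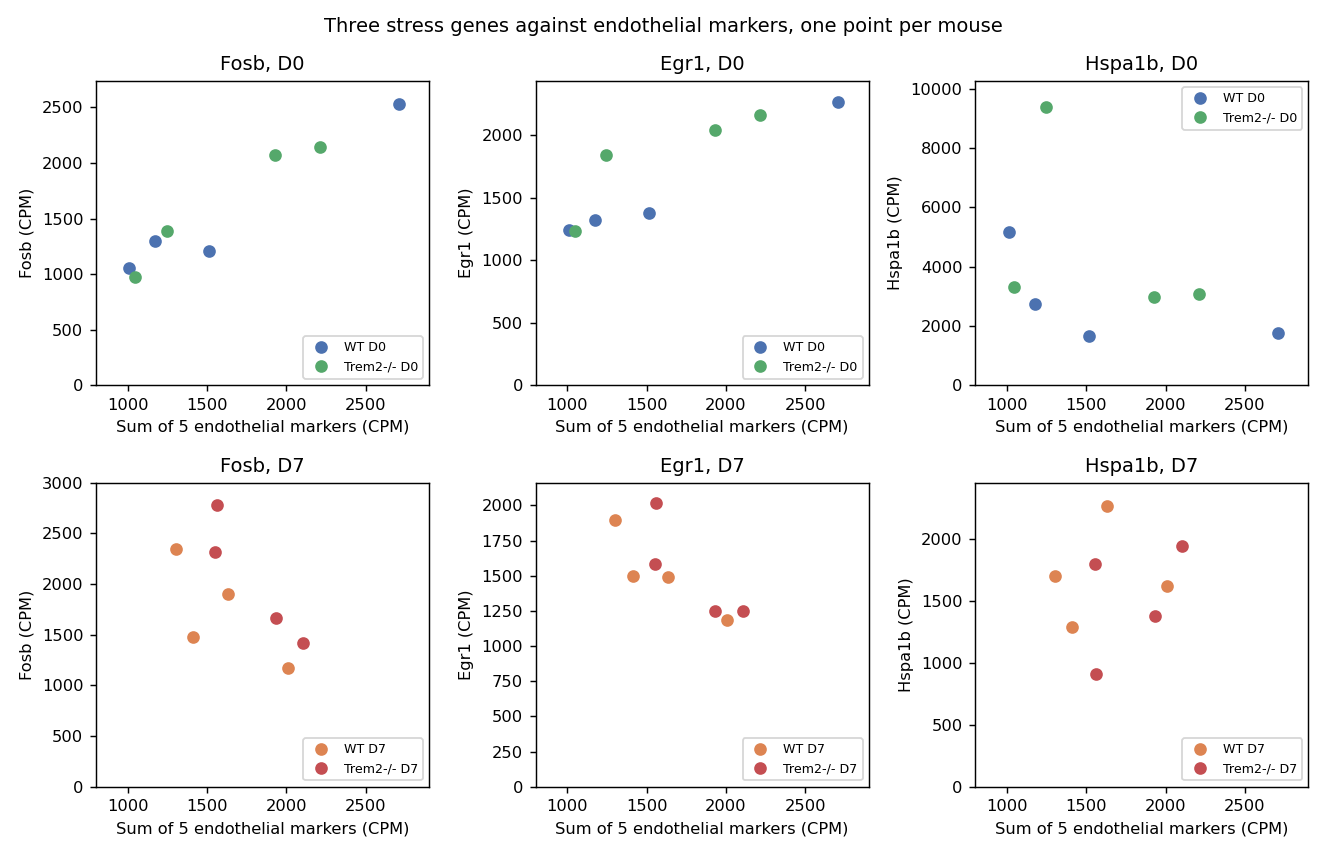
Fosb, Egr1 and Hspa1b (CPM, vertical axes from 0) against the sum of 5 endothelial markers (CPM) in the 8 mice at D0 (top) and the 8 mice at D7 (bottom), with 1 point per mouse. Fosb and Egr1 are highest in the D0 mice with the most endothelial signal (2708 CPM) and the trend is downward at D7, and no relation passed adjustment over 216.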

How the data were processed

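RNA from knee joint cells of 16 mice was sequenced (4 groups of 4). The authors made the deposited signal values, TMM-normalized CPM, by aligning to mm10 with STAR, counting with featureCounts and normalizing with edgeR. Tool versions, annotation, strand setting and low-count filter are not given in the sources used here. All of the deposited values (100%) were whole multiples (tolerance 0.001) of the value of 1 read, which gave the reads per library. Fcgr1, listed 2 times, was counted once.

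Values were compared on the log2(CPM + 1) scale, which understates changes of low genes, using R 4.3.3 and limma 3.58.1 (lmFit, then eBayes with a trend), for genes that reached 1 CPM in 4 or more libraries, in 1 fit of all 4 groups. A call followed the study's rule (unadjusted p under 0.05, log2 change over 0.32), and adjusted p-values are Benjamini-Hochberg over all genes. Exact permutation tests were two-sided. edgeR 4.0.16 and voom were run on the recovered reads, and the test was checked on simulated data. The members and gene lists were chosen with earlier results of these data known. Genes of each list were named by a fixed rule. The rule took at most 2 per direction with the largest change among called genes averaging 5 CPM or more. Outside the rule were Hspb8, Cryab, Hspa12a, Bag3 and Hspb1 at D0, Pecam1 and its list, and the extreme mice. Exon lengths and positions came from GENCODE M21 (GRCm38). Samples were grouped by labelled genotype and injury. Correlations of same-numbered mice of different groups were mixed in sign, from -0.51 to 0.41, with 11 of 24 over 0.1. Between WT D0 and WT D7 they ran from 0.046 to 0.41. Numbers were not treated as pairs in the main fit. Alternatives were other pseudocounts, filters, normalizations, thresholds, tests and fits, the replicate number as a block, and each library left out. Leaving out the pair of mice with the most Hspa1b was added after seeing the data. The values of 1 listed gene are not reported here, and counts over its list include it.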

Additional observations from a re-analysis of the deposited data

Results flagged for a closer look

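In 4 of 36 groups of 4 mice (9 genes in 4 groups), a single mouse lay apart from the others by more than Dixon's 95% limit on the CPM scale. Chance gives about 1.8 for independent groups, but the members varied together over mice. All 4 came from WT D0 replicate 1 and Trem2-/- D0 replicate 3, so an excess is not shown. In WT D0 replicate 1 the gap was 0.836 of the group's range for Fosb (2529.8 CPM against 1054 to 1295) and 0.866 for Egr1 (2265 CPM against 1239 to 1376). In Trem2-/- D0 replicate 3 it was 0.880 for Jun (4227 CPM against 1633 to 1944) and 0.948 for Hspa1b (9389.7 CPM against 2970.0 to 3301). All of these were uninjured mice with a high value.

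For 5 named genes of the related lists the injury response differed between genotypes at an unadjusted limma p under 0.05, and none did after adjustment (limma adjusted p of 0.579 for Tsc22d3, Maf, Ddit3 and Batf and 0.580 for Zbtb16). On the log2 scale the difference, Trem2-/- minus WT, was -0.69 for Tsc22d3, 0.68 for Maf, -0.61 for Ddit3, -0.90 for Zbtb16 and -0.92 for Batf.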

How the results depend on the processing

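Each comparison rests on 4 mice against 4, and single mice changed the counts of called members for injury in WT mice, genotype at D0 and the interaction. Injury in WT mice gave 2 of 9 members in the report, and 4 under quantile normalization, 1 when the fit held the compared groups alone, 0 with a fold over 1.5 and 1 with adjusted p-values. Genotype at D0 gave 3, and 1 when the fit held the compared groups alone, 1 with the replicate block, 1 with a fold over 1.5 and 0 with adjusted p-values. The interaction gave 0, and 1 (Hspa1b) under quantile normalization as well as without WT D0 replicate 2 and Trem2-/- D0 replicate 3 together. Injury in Trem2-/- mice gave 6, and from 4 (fold over 1.5) to 8 (quantile normalization) under the alternatives, and genotype at D7 gave 0 under each alternative run. Leaving out 1 library gave 0 to 3 members for injury in WT mice, 5 to 6 for injury in Trem2-/- mice, 0 to 4 for genotype at D0, 0 to 0 at D7 and 0 to 2 for the interaction, which was 2 without WT D0 replicate 2 or Trem2-/- D0 replicate 1 and 1 without WT D0 replicate 1, WT D7 replicate 4 or Trem2-/- D0 replicate 4. Fosb changed sign with injury under quantile normalization (-0.12 in WT and -0.26 in Trem2-/- mice). With 1 library left out, its log2 difference between genotypes at D0 ran from -0.019 to 0.41, and that of Hspa1b at D7 from -0.36 to 0.0059. Same-numbered mice of different groups correlated between -0.51 and 0.41 over 24 pairs, 11 of them over 0.1, and the block changed the D0 count as above and that for injury in Trem2-/- mice to 5. Why these values moved was not tested.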
